A study of Mus musculus with 4 samples.

Results

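Scavenger and phagocytic receptors take up modified lipoproteins, polyanionic ligands, bacteria and dying cells, and most of what they bind is delivered to lysosomes. They fall into classes that differ in structure. Msr1, Marco and Colec12 belong to class A, with a collagen-like stalk, Cd36, Scarb1 and Scarb2 to class B, and Stab1 and Stab2 are the stabilins. Cd68 is a heavily glycosylated protein of late endosomes and lysosomes, and Mertk is a receptor tyrosine kinase that recognizes apoptotic cells through bridging proteins. Several of them are known from macrophages, but endothelium, adipocytes and hepatocytes use some of them too. These 10 genes were examined out of 19938 measured genes, each through the array probe paired with its symbol alone, and each had 1 such probe.

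RNA came from mesothelia of untreated adult Wt1-cre;Rosa26ReYFP mice on a c57bl/6 background, and all samples share this labelled genotype. The labels do not give the zygosity of the alleles. In these mice, cells that have expressed Wt1, and their descendants, are marked by the fluorescent reporter, and the methods describe no sorting by that reporter before RNA was extracted. The study judged its input by this reporter to be almost entirely mesothelial, a measurement that was not analysed here. Visceral mesothelium was taken from the omentum and parietal mesothelium was teased off the muscle of the body wall, with 2 arrays for each tissue. Both arrays of a tissue are labelled as biological replicates, but the animals behind each are not named, and the p-values rest on the spread between arrays alone.

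Signals are log2 values on Affymetrix Mouse Gene 1.0 ST arrays after RMA normalization, and every difference is visceral minus parietal. A difference was called where the Benjamini-Hochberg adjusted p of limma, taken over all genes, was under 0.05 and the fold was at least 1.5. By that rule 1915 of 19938 genes were called, or 9.6%, and 5.22% of all genes were higher in visceral mesothelium. Median signals of the arrays lay between 7.38 and 7.41. Of 14 mesothelial markers, all had a mean signal above the median of all genes, 7.73. Wt1 itself was higher in visceral mesothelium by 0.84 and was the only 1 of the 14 with a positive difference. In the parietal direction 8 of the 14 were called, as 4.39% of all genes were. The largest of these differences was that of Msln, mesothelin, at -2.14.

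Of the 10 receptors, 4 were called, and all of these were higher in visceral mesothelium: Stab1, Msr1, Cd68 and Cd36. None was called higher in parietal mesothelium, where 4.39% of all genes were. Without adjustment, 6 receptors had p under 0.05 in limma, all in the visceral direction, as 14.8% of all genes had, and 0 in the parietal direction, where 12.3% had. Stab1, Msr1 and Cd68 rose by 3.10-fold to 3.90-fold and Cd36 by 1.76-fold. The other 6 receptors did not pass, and their differences ran from -0.07 for Marco to 0.49 for Colec12. The median difference over all 10 was 0.45, beside 0.00 over all genes tested. The arrays of the tissues did not overlap in 8 receptors, against 56.3% of all genes. In 7 of these both visceral arrays lay above both parietal arrays, which was so for 28.9% of all genes.

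**Figure D1:**
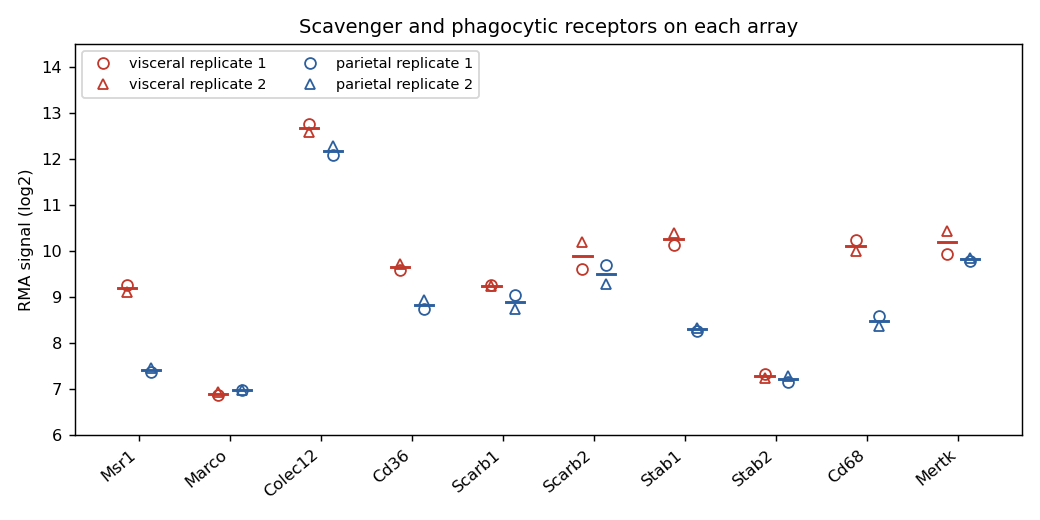
RMA signal on the log2 scale (y axis) of the 10 receptors (x axis) on each of the 4 arrays. Circles are replicate 1 and triangles replicate 2, red for visceral and blue for parietal mesothelium, and short lines are tissue means; the tissues are far apart for Msr1, Stab1 and Cd68, and signals of different genes are not comparable in height.

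Msr1, the class A receptor that takes up acetylated lipoproteins and gave the family its name, had signals of 9.26 and 9.10 in the visceral and 7.37 and 7.44 in the parietal replicates. Both visceral arrays stood well above both parietal ones, and replicates lay within 0.16 of each other. The difference was 1.78 (standard error 0.10), or 3.43-fold with a 95% interval of 2.91 to 4.04, at an adjusted p of 0.000300 from limma.

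Marco, a class A receptor for bacteria and particles, had signals of 6.86 and 6.93 in visceral and 6.96 and 6.97 in parietal mesothelium, all below the median of all genes. The tissues did not overlap, with parietal slightly the higher, but the difference of -0.07 (95% interval -0.27 to 0.13) did not pass (adjusted p = 0.640 from limma). A dim probe can understate a true difference, so these arrays do not show that Marco was equal in both mesothelia.

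Colec12, a class A receptor with a C-type lectin domain known from endothelium and stroma, was bright on all arrays. It measured 12.77 and 12.58 in visceral and 12.08 and 12.28 in parietal mesothelium, so that the tissues did not overlap. Its difference of 0.49 (standard error 0.11) had an adjusted p of 0.0408 from limma but was 1.41-fold, short of the 1.5-fold required. Without parietal replicate 2 the difference was 0.59 and was called (adjusted p = 0.0419), and without parietal replicate 1 it was 0.40 (adjusted p = 0.151).

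Cd36, the class B receptor and fatty acid translocase of macrophages, adipocytes, muscle and capillary endothelium, measured 9.58 and 9.70 in visceral and 8.72 and 8.93 in parietal mesothelium. The tissues did not overlap, and the gap between them was several times that between replicates. The difference was 0.81 (standard error 0.11, adjusted p = 0.00620 from limma), a fold of 1.76 whose 95% interval of 1.46 to 2.11 reaches just under the 1.5-fold required. Leaving out each array in turn gave differences of 0.71 to 0.92, all called.

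Scarb1, the class B receptor for high-density lipoprotein that mediates selective uptake of cholesteryl esters, measured 9.26 and 9.22 in visceral and 9.04 and 8.72 in parietal mesothelium. The arrays did not overlap, yet the parietal replicates differed from each other by 0.31, nearly as much as the tissues did. The difference of 0.36 (95% interval 0.06 to 0.66) had an adjusted p of 0.126 from limma and was not called. It was 0.20 without parietal replicate 2 (adjusted p = 0.493) and 0.52 without parietal replicate 1, where the adjusted p was 0.0448 but the fold stayed under 1.5.

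Scarb2, or LIMP-2, a class B protein of the lysosomal membrane that carries glucocerebrosidase to lysosomes, had the widest spread of the 10. Its signals were 9.60 and 10.18 in visceral and 9.69 and 9.28 in parietal mesothelium. The tissues overlapped, since visceral replicate 1 lay below parietal replicate 1. The difference of 0.40 (95% interval -0.16 to 0.97) did not pass (adjusted p = 0.323 from limma), and it moved between 0.11 without visceral replicate 2 and 0.70 without visceral replicate 1.

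Stab1, stabilin-1, a receptor of macrophages and sinusoidal endothelium that clears acetylated lipoproteins and the matrix protein SPARC, showed the largest difference of the 10. It measured 10.11 and 10.39 in visceral and 8.25 and 8.33 in parietal mesothelium, with no overlap. The difference was 1.96 (standard error 0.12), or 3.90-fold with a 95% interval of 3.19 to 4.76 (adjusted p = 0.000400 from limma).

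Stab2, its relative and a hyaluronan receptor of liver, spleen and lymph node sinusoids, was dim, at 7.33 and 7.23 in visceral and 7.14 and 7.26 in parietal mesothelium. The arrays of the tissues overlapped, and the difference was 0.08 (95% interval -0.15 to 0.30, adjusted p = 0.666 from limma). The log2 ratio of Stab1 to Stab2 within an array was 1.89 higher in visceral mesothelium, and both visceral arrays exceeded both parietal ones. As Stab2 hardly differed, this ratio mostly repeats the difference of Stab1. With 2 arrays against 2, the exact permutation test cannot give a two-sided p under 0.333, which is the value obtained here.

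Cd68, a pan-macrophage protein of the lysosomal membrane, measured 10.22 and 9.99 in visceral and 8.58 and 8.37 in parietal mesothelium. The tissues did not overlap, and replicates lay within 0.24 of each other. The difference was 1.63 (standard error 0.12), or 3.10-fold with a 95% interval of 2.51 to 3.82 (adjusted p = 0.000852 from limma). Set against Scarb2, the other lysosomal membrane protein among the 10, the log2 ratio of Cd68 was 1.23 higher in visceral mesothelium without overlap of the arrays (two-sided exact permutation p = 0.333, the smallest possible).

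Mertk measured 9.93 and 10.44 in visceral and 9.78 and 9.85 in parietal mesothelium. The tissues did not overlap, but visceral replicate 1 lay close to the parietal arrays and 0.51 below visceral replicate 2. The difference of 0.37 (95% interval -0.06 to 0.80) was not called, with an adjusted p of 0.244 from limma. It rested on visceral replicate 2, being 0.11 without that array, and 0.62 without visceral replicate 1, where it was called (adjusted p = 0.0313).

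**Figure D2:**
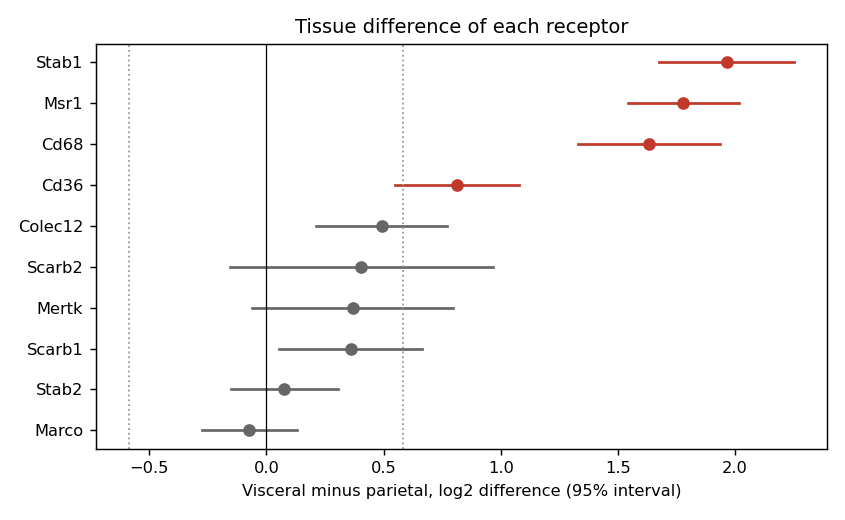
Log2 difference, visceral minus parietal (x axis), of each receptor (y axis) with its 95% interval from limma. Red marks the 4 called receptors and grey the other 6; dotted lines mark a fold of 1.5, which the interval of Cd36 crosses and those of Stab1, Msr1 and Cd68 do not.

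**Figure D3:**
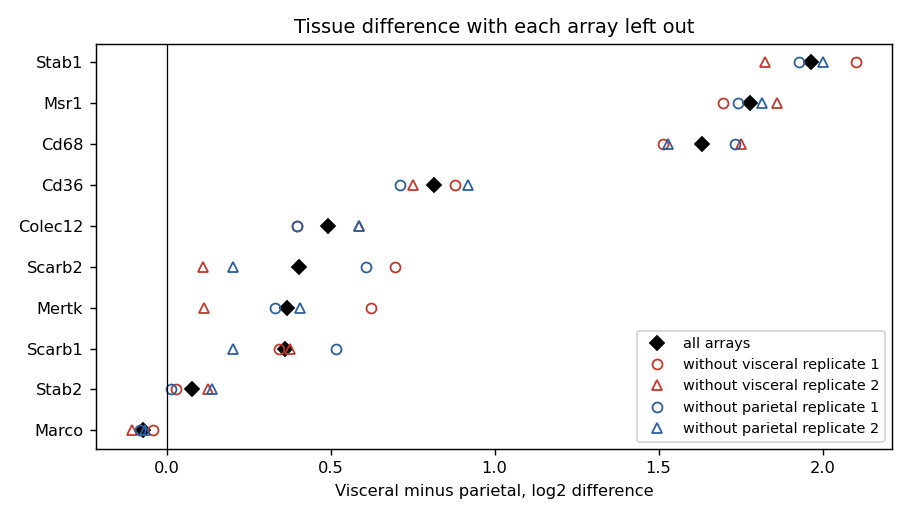
Log2 difference, visceral minus parietal (x axis), of each receptor (y axis) with all arrays (black diamonds) and with 1 array left out (red for a visceral, blue for a parietal array). Stab1, Msr1, Cd68 and Cd36 stay above 0.71 throughout, whereas Scarb2 and Mertk range from 0.11 to 0.70 and 0.62.

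Not all members of a class were called. Of the class A receptors Msr1 alone was called, of class B Cd36 alone, and of the stabilins Stab1 alone. Marco and Stab2 lay under the median signal of all genes, and Colec12 fell short on fold alone. Scarb1 and Scarb2 had positive differences, at 0.36 and 0.40. Unlike calls therefore do not show by themselves that members of a class differed. The log2 ratio of Msr1 to Marco was 1.85 higher and that of Msr1 to Colec12 1.29 higher in visceral mesothelium, both without overlap of the arrays. The ratio of Cd36 to Scarb1 was 0.45 higher without overlap, while that of Cd36 to Scarb2 was 0.41 higher with overlapping arrays (two-sided exact permutation p = 0.667). The difference of each ratio is that of its first gene less that of its second. Such ratios, also those of Stab1 to Stab2 and of Cd68 to Scarb2, therefore restate the single differences. In all, 17 such ratios were compared, and none had an adjusted exact permutation p under 0.405. With so few arrays this test cannot give a p under 0.333 for any ratio, so it cannot decide whether they differ.

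Promoter sequence was available from RefSeq for 7 of the 10 genes, namely Marco, Mertk, Cd36, Scarb2, Stab2, Cd68 and Stab1, as a window from 250 bases before to 50 bases after a transcript start in GRCm38.p6. These windows were searched on both strands for GAGGAA, the core of sites of the myeloid factor PU.1, and for CACGTG, the E-box bound by the MiT/TFE factors that control lysosomal genes. The motifs do not overlap each other. GAGGAA was found in 3 of the 7, in Stab1, Cd68 and Marco, against 28.3% of all 32851 promoter windows. CACGTG was found in 0 of the 7, against 7.2% of all windows. The stretches with the first match are shown because Stab1 and Cd68 were called and Marco, which holds the same letters, was not. Cd36 was called too but has no GAGGAA in its window, and for Msr1, also called, no window was available. GAGGAA stands in capitals, positions count back from the transcript start, and all 3 genes lie on the minus strand. The Stab1 stretch covers positions -110 to -11 (chr14:31168652-31168751), the Cd68 stretch -250 to -151 (chr11:69666321-69666420) and the Marco stretch -200 to -101 (chr1:120505125-120505224).
Stab1: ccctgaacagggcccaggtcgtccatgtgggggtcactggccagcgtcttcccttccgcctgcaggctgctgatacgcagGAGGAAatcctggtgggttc
Cd68: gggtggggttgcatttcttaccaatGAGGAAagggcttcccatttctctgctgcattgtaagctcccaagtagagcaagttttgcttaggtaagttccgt
Marco: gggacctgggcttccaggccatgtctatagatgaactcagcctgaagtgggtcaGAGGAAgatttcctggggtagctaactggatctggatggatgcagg
The matches begin at -30 in Stab1, -225 in Cd68 and -146 in Marco, and Cd68 holds another on the opposite strand from 30 to 35 after the start. These matches describe letters only, and binding was not measured.

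Among 18 further scavenger receptors, 6 were called by limma as higher in visceral mesothelium and 0 as lower, with a median difference of 0.08. Of all genes, 5.22% were called higher and 4.39% lower. Without adjustment, 7 had p under 0.05 in limma in the visceral and 2 in the parietal direction, beside 14.8% and 12.3% of all genes. The largest was that of Mrc1, the mannose receptor, at 10.47 and 10.46 in visceral and 7.83 and 7.73 in parietal mesothelium, a difference of 2.69 or 6.45-fold (adjusted p = 6.84e-05 from limma). Cd163, which clears haemoglobin bound to haptoglobin, was higher by 2.33, the hyaluronan receptor Cd44 by 1.72 and the beta-glucan receptor Clec7a by 1.68. The study had tested these same arrays and had listed Clec7a among its examples of genes that differ. None of the calls given here is therefore independent evidence. The class A members Scara3 and Scara5, the latter a ferritin receptor, were higher by 1.37 and 1.31. The endocytic receptor Lrp1, bright in both mesothelia, had a difference of 0.24 and did not pass. Its relative Lrp2 had a difference of -0.56, with an adjusted p of 0.0421 from limma, but was 1.47-fold higher in parietal mesothelium, just short of the 1.5-fold required.

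Of the 5 partners and relatives of Mertk examined, 1 was called. Pros1, protein S, which links phosphatidylserine on dying cells to these kinases, was 2.06-fold higher in visceral mesothelium, at 9.81 and 9.82 against 8.75 and 8.80 (difference 1.04, adjusted p = 0.000959 from limma). Gas6, the other bridging ligand, had signals of 12.67 and 12.65 in visceral and 12.81 and 12.94 in parietal mesothelium and did not pass (difference -0.21, adjusted p = 0.196). Axl measured 11.39 and 11.60 against 11.00 and 10.94, a difference of 0.52 that had an adjusted p of 0.0250 from limma but fell short of 1.5-fold. Tyro3 had a difference of -0.12 and Mfge8, a bridging protein for integrins, of 0.13, and neither passed. The log2 ratio of Mertk to Axl differed by -0.15 with overlapping arrays.

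Of 23 genes for recognition of apoptotic cells, 8 rose in visceral mesothelium, 1 was higher in parietal mesothelium, and the median difference was 0.06. Over all genes, 5.22% and 4.39% were called in these directions. The complement chains C1qc, C1qb and C1qa, which coat dying cells, were higher by 2.94, 2.49 and 2.36. The signaling adaptor Tyrobp was higher by 2.39 and its partner receptor Trem2 by 1.85. Timd4, a phosphatidylserine receptor of resident peritoneal macrophages, was higher by 1.74. Itgb5, the integrin chain that pairs with Itgav to bind Mfge8, was the gene higher in parietal mesothelium, at -0.73. Cd47, which signals against engulfment, had a difference of 0.25 and did not pass.

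Of 15 measured genes of the engulfment machinery, 6 were higher in visceral mesothelium and 0 lower by limma, with a median of 0.42. Over all genes, 5.22% were called higher and 4.39% lower. At an unadjusted limma p under 0.05, 10 were higher and 0 lower, beside 14.8% and 12.3% of all genes. Dock2, the Rac activator of blood cells, was 4.46-fold higher (difference 2.16), followed by Rac2 (1.36), Vav1 (1.20), Plcg2 (0.97) and the kinase Syk (0.97). The broadly expressed Rac1 and Crk had differences of -0.09 and 0.17 and did not pass. Of 22 measured lysosomal genes, 5 were higher in visceral mesothelium, beside 5.22% of all genes, and 17 did not pass, with a median of 0.16. The protease Ctss was higher by 2.02 and the membrane protein Laptm5 by 1.92, whereas Lipa, the acid lipase that frees cholesterol from lipoproteins, rose by 0.79, Gusb by 0.65 and Lgmn by 0.60. Psap and Ctsl, bright in both mesothelia, had differences of 0.15 and -0.19 and did not pass.

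Of 19 measured genes for lipid uptake and cholesterol handling, 4 rose in visceral and 2 in parietal mesothelium, and the median difference was -0.01. The shares of all genes called in these directions were 5.22% and 4.39%. Apoe rose by 1.53 in visceral mesothelium, the fatty acid binding protein Fabp5 by 1.14, the fatty acid transporter Slc27a1 by 0.93 and Nr1h3, the sterol sensor LXR-alpha, by 0.89. Fabp3, the fatty acid binding protein of muscle, was lower in visceral mesothelium by a difference of -2.38, and lipoprotein lipase, Lpl, by -0.85. The caveolar protein Cav1 (0.24) did not pass. The cholesteryl ester hydrolase Nceh1 (-0.44) had an adjusted p of 0.0473 from limma in the parietal direction but was 1.36-fold, short of the 1.5-fold required.

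**Figure D4:**
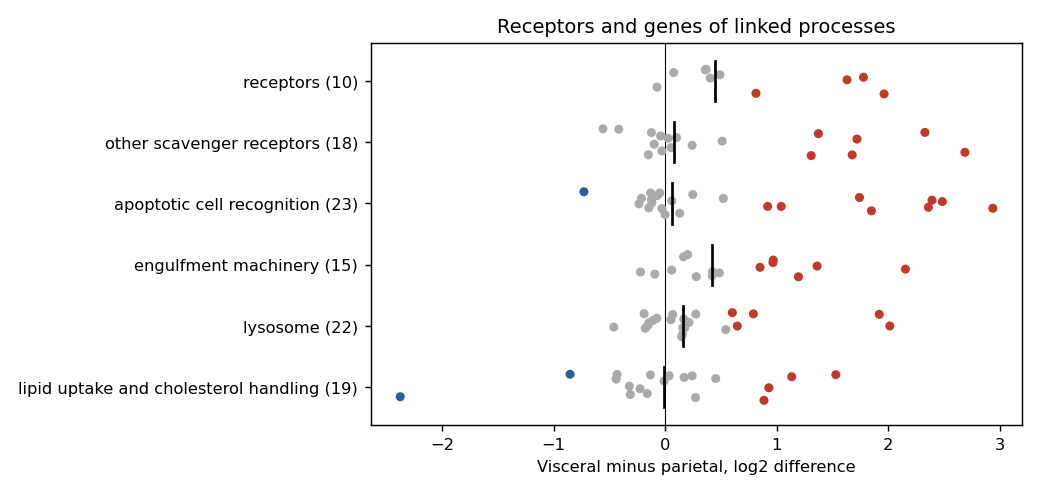
Log2 difference, visceral minus parietal (x axis), of the 10 receptors and of the genes of 5 lists (y axis, with the number of measured genes). Points are genes, in red or blue where called as higher in the visceral or the parietal samples and otherwise in grey, spread vertically for legibility only; black lines are medians, which lie between -0.01 and 0.45.

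Markers of 9 cell types were examined beside the receptors, and their lists differed in direction. Over all genes, limma called 5.22% in the visceral and 4.39% in the parietal direction. Of 12 macrophage markers, 10 were called higher in visceral mesothelium, Aif1 and Cx3cr1 did not pass, and the median difference was 1.64. Among those called, Tyrobp and Cd14 also stand on the list for apoptotic cells and Laptm5 on the lysosomal list. They are counted on both, so these lists are not separate evidence. Adgre1, a macrophage surface receptor, differed by 1.63, the growth factor receptor Csf1r by 1.07 and Fcer1g by 2.87. The log2 of their summed signal was 14.08 to 14.13 in visceral and 12.34 to 12.53 in parietal mesothelium, and 3 of the 12 had a mean signal under the median of all genes. Single markers differed by 0.37 to 2.87. Beside them, Stab1, Msr1 and Cd68 differed by 1.96, 1.78 and 1.63 and Cd36 by 0.81. Measured against the mean of these markers on the same array, Stab1 was 0.49 and Msr1 0.31 higher in visceral mesothelium without overlap of the arrays. Cd68 was 0.16 higher with overlap, and Cd36 was lower, at -0.66, without overlap. The uncalled receptors were all lower on this measure, from -1.54 for Marco to -0.98 for Colec12, also without overlap. Each of these values is the receptor's own difference less that of the marker mean, the same for all 10. The order of the receptors therefore restates their differences and is no separate evidence. The part of macrophage RNA in the receptor differences was not tested, and in such bulk samples fewer cells of a type and less RNA per cell cannot be told apart.

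Of 5 dendritic cell markers limma called 0, and 1 had an unadjusted p under 0.05, in the visceral direction, as 14.8% of all genes had. All 5 lay under the median signal of all genes, with a median difference of 0.08. Of 5 measured B cell markers 3, such as Cd79b (1.80) and Cd79a (1.61), were called higher in visceral mesothelium, beside 5.22% of all genes. The log2 summed signal of that list was 9.95 to 10.36 against 8.76 to 8.92. Of 12 endothelial markers, Cdh5 (-0.60) and Esam (-0.69) were called higher in parietal mesothelium, as 4.39% of all genes were, and 10 did not pass. Among these 10, Kdr (-0.50) had an adjusted p of 0.0409 from limma but was only 1.41-fold higher in parietal mesothelium. Without adjustment, 4 of the 12 had p under 0.05 in limma in the parietal and 1 in the visceral direction, beside 12.3% and 14.8% of all genes. Under the median signal lay 9 of the 12, and the median difference was 0.02. Among 7 markers of lymphatic and sinusoidal endothelium only Lyve1, which some resident macrophages share, was called (3.37), while Prox1, the defining lymphatic factor, differed by 0.00 and lay under the median signal. These values stand beside those of Stab1 and Stab2, receptors of such endothelium, and their part was not tested.

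Fat and muscle also express Cd36, and their markers are given beside it. Of 8 measured adipocyte markers limma called 0, and 1 had an unadjusted p under 0.05, in the parietal direction, as 12.3% of all genes had. Their median was -0.22, and 6 lay under the median signal. Adipoq, adiponectin, was at 7.50 in parietal replicate 1 and between 5.96 and 5.99 on the other arrays, and the log2 summed signal of the list was 11.06 on that array against 10.18 to 10.38 on the others. On that same array Cd36 measured 8.72, beside 8.93 on the other parietal array, and 1 array cannot show how the values relate. All 12 skeletal muscle markers were called in the parietal direction, as 4.39% of all genes were. Their median was -5.28, with a log2 summed signal of 15.79 to 16.16 in parietal against 10.61 to 10.63 in visceral mesothelium. Creatine kinase Ckm, on that list, differed by -4.67. The part of fat and muscle RNA in the difference of Cd36 was not tested.

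The mesothelial list had a median of -0.96, and 8 of its 14 genes were called in the parietal direction, among them keratin Krt7 (-1.78), against 1 in the visceral direction. On the list of 7 fibroblast markers, 3 were called in the parietal direction, including Pi16 (-1.24), and 1 in the visceral direction, at a median of -0.38. Of all genes, 4.39% were called in the parietal and 5.22% in the visceral direction. Pdgfra, the defining fibroblast receptor, differed by 0.14 and did not pass.

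**Figure D5:**
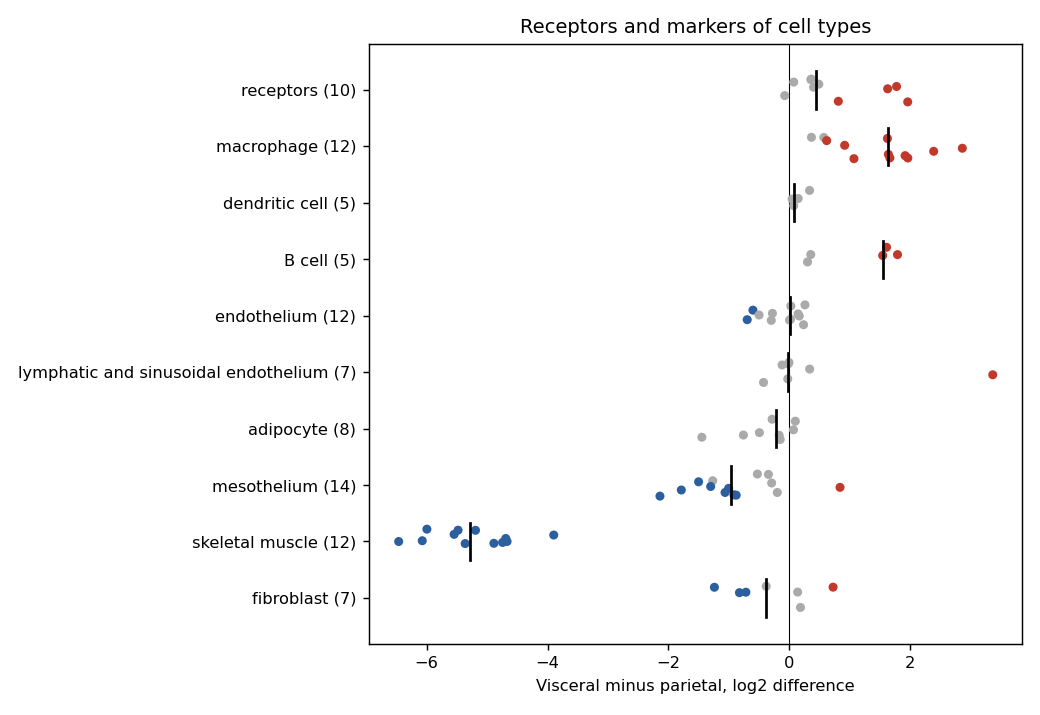
Log2 difference, visceral minus parietal (x axis), of the 10 receptors and of markers of 9 cell types (y axis, with the number of measured genes). Points are genes, in red or blue where called as higher in the visceral or the parietal samples and otherwise in grey, spread vertically for legibility only; black lines are medians, at 1.64 for macrophage and -5.28 for skeletal muscle markers.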

How the data were processed

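Total RNA of visceral (omental) and parietal (body wall) mesothelium was hybridized to 4 Affymetrix Mouse Gene 1.0 ST arrays. The deposited log2 values are RMA signals that the authors computed, in Partek 6.6 according to the submitters' processing notes. The array library version is not given in the sources used here. RMA equalizes the distributions of the arrays, so differences are relative to all probes.

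Of 35556 probes, 21789 had 1 gene symbol in a platform annotation, 1621 several and 12146 none. The probe with the highest mean stood for each of 19938 genes. Visceral and parietal arrays entered 1 limma model (version 3.58.1, R 4.3.3) without a block, and calls needed an adjusted p under 0.05 and at least 1.5-fold. The code was tested on simulated data. The number of arrays limits the precision. Scan dates were not used.

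The receptors, the 5 linked lists and the 9 marker lists were chosen with earlier results of these data known. Named genes are the receptors, the partners of Mertk, up to 5 called genes with the largest difference and 2 bright uncalled genes of each linked list, and the first 2 and 2 called genes of each marker list. Scara5, Timd4, Itgb5, Lpl, Aif1, Cx3cr1, Cd14 and Kdr were named after their values were seen. Promoters came from RefSeq, and proteins were not compared. The 20 alternatives covered the test, thresholds, variance prior, normalization, dim genes, probe choice, the replicate number as a block, and each array left out in turn.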

Additional observations from a re-analysis of the deposited data

How the results depend on the processing

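The count of 4 called receptors, all higher in visceral mesothelium, was 3 to 5 under 19 of 20 alternatives. The exception was the methods' t-test (one-way ANOVA of the tissues) with Benjamini-Hochberg adjustment, which called 0 receptors, 0 of 97 genes on the linked lists and 0 of 19938 genes, with a lowest adjusted p of 0.0861. The study did report differing probes by ANOVA at these thresholds, counted over probes rather than genes. Why the outcomes differ was not tested. Without adjustment the methods' t-test, at p under 0.05 and the same fold, called 4 receptors and 1582 genes. Over all genes, 724 were called by limma's test against a fold of 1.5 and 978 at a fold of at least 2, and on the linked lists 19 and 21 instead of 32. Cd36 was not called under either. Leaving out each array gave 4 to 5 receptors, 1696 to 2095 genes and 30 to 34 genes on the linked lists. It moved the lysosomal count from 5 to 3 without visceral replicate 1 and without parietal replicate 2. No receptor changed direction under any alternative in which it was tested. Marco and Stab2 were dropped by both filters on dim genes, so that they have a value under 18 of the 20. With the replicate number as a block, 4 receptors, 32 genes on the linked lists and 2008 genes were called. The study's methods describe the parietal mesothelium as taken in parallel from the animals used for the omentum, without pairing arrays. The labels do not say that a number marks shared animals, and the differences of replicate 1 minus replicate 2 correlated across genes between the tissues at r = 0.36. With 1 array in a tissue, the lone array was assumed to vary like those of the other tissue. Dim signals limit what can be seen for Marco and Stab2.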
